A study of Bos grunniens with 6 samples.

Results

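The genes described here are 5 markers by which the dermal papilla of the hair follicle is recognised, namely TWIST1 (TWIST in the table), VCAN (CSPG2), ITGA8, CORIN (CRN) and ALPL. They were chosen by symbol, and each symbol was found in 1 row of the 15646 genes in the table. The samples were cultured cells from skin of wild-type yak (Bos grunniens), with 3 cultures labelled as dermal papilla cells (DPC, a dermal cell) and 3 as hair matrix cells (HMC, an epidermal cell). All 6 had been isolated, then grown in DMEM/F12 with 10% FBS, 20 ng/mL EGF, 10 ng/mL IGF1 and 1% penicillin-streptomycin, so that serum and both growth factors are shared by the groups. The labels call the cultures biological replicates and do not say whether they came from different animals, so the p-values measure the spread between these cultures. Passage number is not given in the labels, and no papilla taken straight from skin was analysed here, so a level before culture cannot be set beside these values.

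The dermal papilla is a cluster of mesenchymal cells at the base of the follicle that signals to the epithelium above it, and hair matrix cells are the epithelial cells that receive those signals and divide to form the shaft. Papilla cells in skin are commonly recognised by alkaline phosphatase activity, by versican in their matrix and by surface proteins such as CORIN and integrin alpha 8. Papilla cells put into culture are known to lose part of this identity, alkaline phosphatase among it. In bulk RNA, fewer cells of a type and less RNA per cell cannot be told apart.

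In the DPC cultures TWIST1, VCAN and ITGA8 were abundant, and ALPL and CORIN were at the edge of detection. Mean levels in DPC were 380 FPKM for TWIST1, 105 FPKM for VCAN and 85.1 FPKM for ITGA8, against 0.0582 FPKM for CORIN and 0.0145 FPKM for ALPL. FPKM counts fragments relative to gene length and library depth. The first 3 genes stood at 2.90, 2.58 and 0.219 FPKM in HMC. CORIN and ALPL were also low in HMC, with means of 0.160 and 0.0187 FPKM. The 5 markers therefore fell into 3 that were present in DPC and 2 that were near the limit of detection in both cell types.

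**Figure D1:**
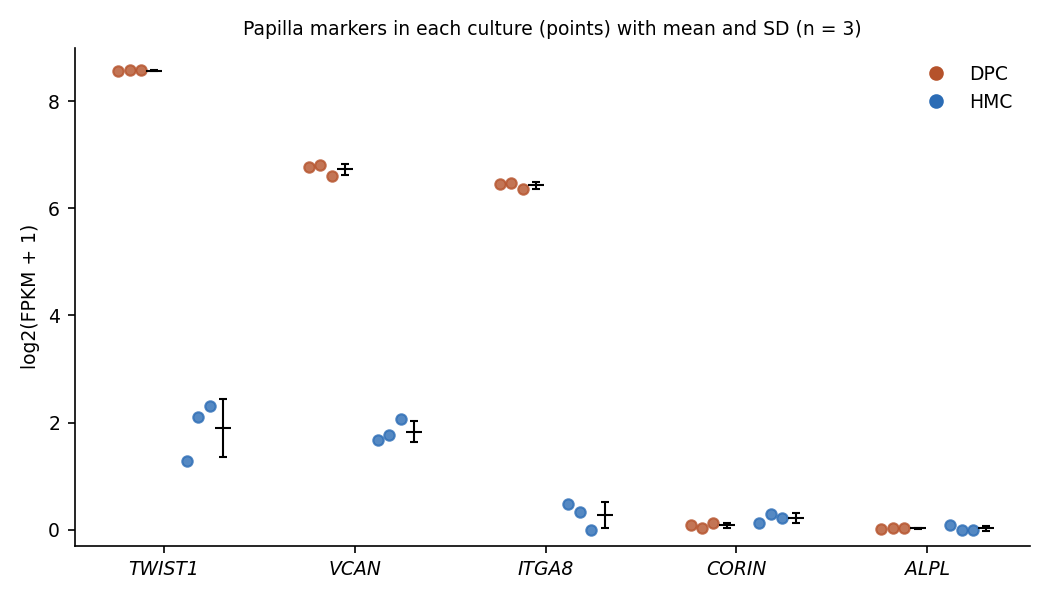
Level of each papilla marker as log2(FPKM + 1) in the 3 DPC and 3 HMC cultures (points), with the mean and SD on that scale beside them. TWIST1, VCAN and ITGA8 lie far above HMC in all 3 DPC cultures, while CORIN and ALPL lie near 0 in all 6.

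Depth behind these values could be read from the table, since the FPKM values of every gene were whole multiples of what 1 read is worth. Recovered reads summed to between 13.10 M and 14.00 M per library. Those of TWIST1 were 3067, 3041 and 3099 in DPC replicates 1, 2 and 3. VCAN had 9015, 8947 and 7941 reads and ITGA8 had 639, 638 and 593 in the same libraries. The reads of VCAN and ITGA8 differed far more than their levels per length. A single read was worth 0.0121 FPKM for VCAN and 0.135 FPKM for ITGA8 in DPC replicate 1, so the VCAN model was 11.2 times as long as that of ITGA8. The models of ITGA8 and TWIST1 were shorter than most, with only 8.58% and 9.96% of genes having a shorter one. Those of ALPL and CORIN were longer than 93.4% and 79.7% of models. The part of model length in any of these values was not tested. Nor was it tested whether each model covers its whole gene, so levels of different genes are compared on lengths taken as given.

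TWIST1 is a basic helix-loop-helix transcription factor of mesoderm and dermis. Its level (ENSBGRG00000001656) was 376, 381 and 383 FPKM in DPC replicates 1, 2 and 3, and 1.43, 3.30 and 3.97 FPKM in HMC replicates 1, 2 and 3. The DPC cultures agreed within a coefficient of variation of 0.979%, and every DPC value lay above every HMC value. The HMC cultures spread more, with a coefficient of variation of 45.3% and HMC replicate 1 the lowest. The log2(FPKM + 1) of DPC exceeded that of HMC by 6.67 (SE 0.23, 95% interval 6.14 to 7.20, limma adjusted p = 3.19e-08). This was the fifth largest difference toward DPC among 11883 genes tested. On the linear scale the ratio of means was 131-fold (SD 3.72 FPKM in DPC against 1.32 FPKM in HMC, n = 3 each).

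ITGA8 is the alpha 8 chain of an integrin that binds matrix proteins with an RGD motif together with the beta 1 chain. Its level (ENSBGRG00000016221) was 86.4, 88.1 and 80.9 FPKM in DPC replicates 1, 2 and 3, and 0.395, 0.260 and 0 FPKM in HMC replicates 1, 2 and 3. Every DPC culture was far above every HMC culture, and the HMC values rested on 3, 2 and 0 reads. The log2 difference was 6.16 (SE 0.12, 95% interval 5.88 to 6.43, limma adjusted p = 1.16e-09). As this scale adds 1 FPKM, it understates a gene so low in HMC, and the difference was 8.35 with 0.1 FPKM added in its place. By reads per depth the ratio was 391, with an exact 95% interval for counting error of 167 to 1206, because 5 reads in all carry the HMC side. That interval covers counting error only, as do the other read intervals given here. ITGA8 passed the filter of a mean of 0.5 FPKM through its DPC level alone, so a difference toward DPC was fixed by the filter.

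VCAN encodes versican, a large chondroitin sulfate proteoglycan that binds hyaluronan and is used to mark papillae in the growth phase of the hair cycle. Its level (ENSBGRG00000002717) was 109, 110.5 and 96.8 FPKM in DPC replicates 1, 2 and 3, and 2.19, 2.39 and 3.17 FPKM in HMC replicates 1, 2 and 3. DPC replicate 3 was the lowest of its group for VCAN and also for ITGA8, and neither gene's groups overlapped. The log2 difference was 4.90 (SE 0.11, 95% interval 4.65 to 5.15, limma adjusted p = 2.12e-09), and the ratio of means was 40.8-fold. VCAN ranked 58 among the differences toward DPC.

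TWIST1 and VCAN, which reached the filter in both groups, and ITGA8, which reached it in DPC alone, were each called higher in DPC. In this comparison 29.7% of tested genes were called in that direction and 75.9% in either. The range of values in DPC did not overlap with that in HMC for any of the 3, which held for 30.8% of tested genes in that direction, for 47.1% in the opposite one and for 77.9% in either. Over all genes tested the median log2 difference was -0.15. CORIN and ALPL were below 0.5 FPKM on average and were not part of the fit.

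ALPL is tissue-nonspecific alkaline phosphatase, a membrane-anchored enzyme that frees phosphate and whose activity is the usual stain for the papilla. Its level (ENSBGRG00000000875) stood at 0.0144, 0.0147 and 0.0145 FPKM in DPC replicates 1, 2 and 3 and at 0.0560, 0 and 0 FPKM in HMC replicates 1, 2 and 3. The reads behind these values were 1 in each DPC library, 4 in HMC replicate 1 and 0 in the other HMC libraries. The even DPC values are the value of a single read, so their small spread says nothing of precision. With 3 reads in DPC and 4 in HMC the ratio of reads per depth was 0.784, with an exact 95% interval of 0.115 to 4.64. No difference was detectable at this depth (exact permutation test, two-sided, p = 1, where 3 against 3 cannot go below 0.1). The counting interval of the pooled DPC level reached 0.0424 FPKM at most. Of all genes in the table, 9.88% had a DPC mean at or below that of ALPL.

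CORIN is a membrane serine protease, known for cutting the precursor of atrial natriuretic peptide and, in mouse papillae, for its effect on coat colour. Its level (ENSBGRG00000001280) stood at 0.0650, 0.0221 and 0.0874 FPKM in DPC replicates 1, 2 and 3 and at 0.0845, 0.230 and 0.165 FPKM in HMC replicates 1, 2 and 3. The lowest HMC culture lay below the highest DPC culture, so the groups overlapped. Reads numbered 3, 1 and 4 in DPC and 4, 11 and 8 in HMC. The ratio of reads per depth was 0.364, DPC over HMC, with an exact 95% interval for counting error of 0.141 to 0.842. Between cultures the difference did not pass (exact permutation test, two-sided, p = 0.2, log2 difference -0.13). Of all genes, 16.3% had a DPC mean at or below that of CORIN and 20.1% an HMC mean at or below its own.

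**Figure D2:**
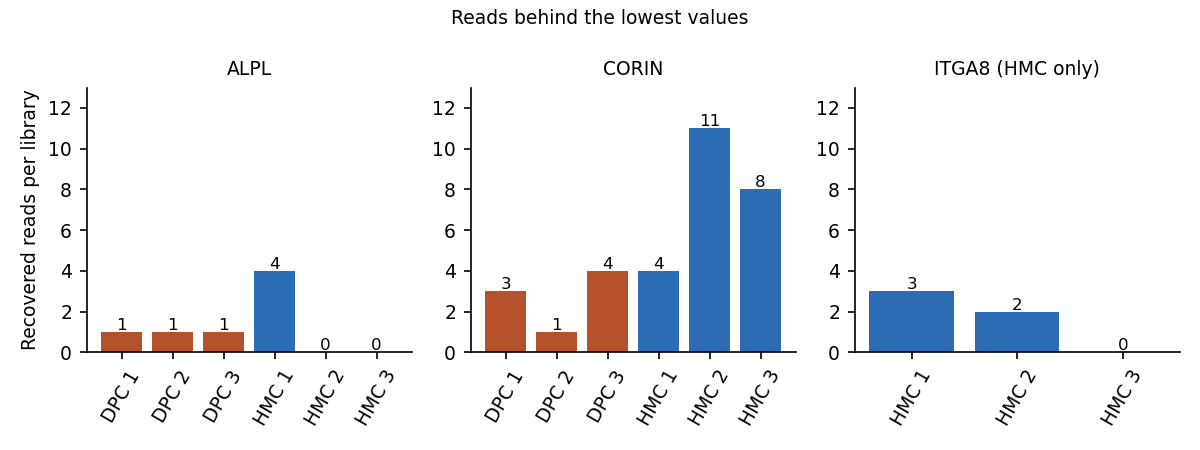
Recovered reads per library for ALPL and CORIN in all 6 cultures and for ITGA8 in the HMC cultures, with bars starting at 0 and the count above each bar. ALPL has at most 4 reads in any library and CORIN at most 11.

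With model lengths taken as given, the order of levels in DPC was TWIST1, VCAN, ITGA8, CORIN and ALPL, and no neighbours in that order overlapped. The closest were VCAN and ITGA8, with a ratio of means of 1.24 and ranges of 96.8 to 110.5 FPKM and 80.9 to 88.1 FPKM. CORIN and ALPL rest on so few reads that their order is not read further. In HMC the order by mean was the same. There TWIST1 and VCAN overlapped, and so did ITGA8 and CORIN.

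HMC kept a trace of the 3 abundant markers, which can be set beside the trace of general mesenchyme genes in the same cultures. As a share of the DPC mean, the HMC mean was 0.764% for TWIST1, 0.257% for ITGA8 and 2.45% for VCAN. For 9 of 9 markers of dermal fibroblasts and mesenchyme it ranged from 1.18% (THY1) to 6.97% (VIM, the intermediate filament vimentin), with a median of 1.88%. ITGA8 and TWIST1 therefore lay below all 9, and VCAN lay within their range. TWIST1 was 2.77 times as high in HMC replicate 3 as in HMC replicate 1 (34 against 12 reads) and VCAN 1.45 times (275 against 186 reads). ITGA8 went the other way, with 0 reads in HMC replicate 3 and 3 in HMC replicate 1. The 9 markers ranged from 0.629 to 1.34 times. The summed level of those 9 markers was 18619 to 19386 FPKM in DPC and 606 to 717 FPKM in HMC, and none of them was at 0 in either group. The part of carried-over mesenchymal cells in the HMC values of TWIST1 and VCAN was not tested.

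**Figure D3:**
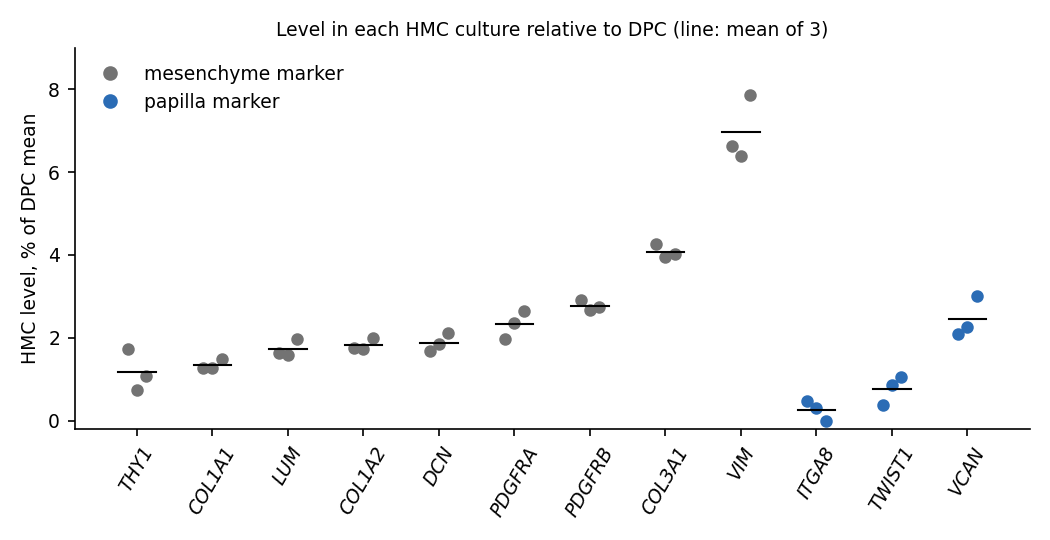
Level in each HMC culture as a percent of the DPC mean of the same gene, for 9 mesenchyme markers (grey) and for ITGA8, TWIST1 and VCAN (blue), with a line at the mean of 3. ITGA8 and TWIST1 have lower means than every grey gene, and VCAN lies among them.

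Markers of other cells were checked in the same cultures. Of 8 epithelial markers, 7 were called higher in HMC, where 46.2% of all tested genes were. Of the 7, 4 reached the filter through HMC alone, so their direction was fixed by the filter. The 8 summed to 57.1 to 83.5 FPKM in DPC and 1970 to 2086 FPKM in HMC. KRT14, the exception, was at 16.5, 12.4 and 19.7 FPKM in DPC and at 15.4, 14.7 and 14.9 FPKM in HMC, and did not pass (limma adjusted p = 0.605). The 4 matched hair matrix and shaft markers were low in both, summing to 7.25 to 9.36 FPKM in DPC and 8.94 to 9.23 FPKM in HMC. These sums hide opposite directions. Of 3 tested, 1 was called higher in DPC and 1 higher in HMC, against 29.7% and 46.2% of all tested genes. MSX2 was higher in DPC (6.15 FPKM, 2.47 FPKM in HMC) and LEF1 higher in HMC (1.09 FPKM in DPC, 5.91 FPKM in HMC). HOXC13 was not called. The hair keratin KRT35 was at 0 in every DPC library and had 4 reads in HMC. Of 4 tested dermal sheath and smooth muscle markers, 4 were called higher in DPC, against 29.7% of all tested genes, with ACTA2 (ACTSA), smooth muscle actin, at 9321 FPKM there and 159 FPKM in HMC. The fifth, the smooth muscle myosin MYH11, was under the filter at 0.146 FPKM in DPC. The part of sheath cells in the DPC values was not tested. Summed levels of matched markers were at most 0.271 FPKM in DPC for endothelium, 5.95 FPKM for melanocytes, 13.5 FPKM for immune cells, 10.9 FPKM for pericytes, 25.5 FPKM for Schwann cells and 22.3 FPKM for adipocytes. In HMC the highest sums of the same lists were 1.21, 7.32, 20.1, 17.7, 6.30 and 11.2 FPKM.

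Beyond the 5 genes, 46 further papilla markers were listed, of which 40 were matched to a row and 26 passed the filter. Of these 26, 15 were called higher in DPC and 11 higher in HMC, at a background of 29.7% and 46.2% of all tested genes. Of the 15, 9 had an HMC mean under 0.5 FPKM and reached the filter through DPC alone, as 1 of the 11 did through HMC, so these counts and the median describe the list and support no direction. Their median log2 difference was 0.83, against -0.15 for all tested genes. Of 26 tested, 25 had groups that did not overlap, the exception being PTHLH, a parathyroid hormone-like ligand. Over all tested genes the groups did not overlap for 77.9%. Differences above 2 on the log2 scale were 9 toward DPC and 3 toward HMC. Among the 9, the direction of FGF7, FGF10, BMP4, ENPP2, CXCL12 and GPC3 was fixed by the filter. The share of all tested genes above 2 was not computed, so these 2 counts are not read further. No direction changed with median-of-ratios rescaling or quantile normalization.

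The 4 genes with the largest differences toward DPC were RSPO3, GPC3, NOG and PDGFRA. RSPO3, a secreted agonist of WNT signalling, stood at 59.8, 55.7 and 58.8 FPKM in DPC and 0.318, 0.439 and 0.808 FPKM in HMC (log2 difference 5.29, SE 0.12, limma adjusted p = 2.23e-09). GPC3, a glypican of the cell surface, stood at 22.4, 23.5 and 24.4 FPKM in DPC and 0, 0 and 0.0768 FPKM in HMC. GPC3 reached the filter through DPC alone, so its direction was fixed by the filter. With only 3 reads in HMC its ratio of reads per depth was 903, with an exact 95% interval for counting error of 309 to 4381. The BMP antagonist NOG was even across DPC, at 30.9 ± 0.135 FPKM, and stood at 0.647 ± 0.113 FPKM in HMC (SD, n = 3 each). The receptor PDGFRA (PDGFR2), at 25.7 ± 1.85 and 0.598 ± 0.0869 FPKM, had a log2 difference of 4.06. PDGFRA was also among the general mesenchyme markers described above, so it is not particular to the papilla list.

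FGF10, FGF7 and BMP4, ligands of the same list, were picked for mention after their values had been seen. Each reached the filter through DPC alone, so a difference toward DPC was fixed by the filter. Another ligand, INHBA, was called higher in HMC (89.1 FPKM in DPC, 130.8 FPKM in HMC, log2 difference -0.54), and RSPO2, HGF, IGF1 and NRG2 were under the filter. FGF10 stood at 10.0, 8.56 and 9.17 FPKM in DPC and had no read in any HMC library, which makes it at least 93.7-fold higher against a floor of 3 reads over the HMC group. FGF7 (KGF), at 9.27 ± 0.395 FPKM in DPC against 0.398 ± 0.184 FPKM in HMC, and BMP4, at 12.2 ± 1.76 and 0.334 ± 0.183 FPKM (SD, n = 3 each), differed by 2.88 and 3.30 on the log2 scale. The most abundant listed gene in DPC was CTNNB1, the adhesion and WNT signalling protein beta-catenin, at 318 FPKM against 276 FPKM in HMC. Its log2 difference was 0.20 (limma adjusted p = 0.00237).

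The listed markers that were higher in HMC included 3 secreted or Notch-linked genes with large differences. SFRP2, a secreted modulator of WNT signalling, stood at 5.26, 4.34 and 5.50 FPKM in DPC and 66.6, 65.6 and 59.5 FPKM in HMC (log2 difference -3.43, SE 0.09, limma adjusted p = 5.18e-09). The activin antagonist FST was the most abundant of the list in HMC, with a log2 difference of -3.21. HEY1, a target of Notch signalling, stood at 7.66 ± 0.938 FPKM in DPC against 58.1 ± 1.27 FPKM in HMC (SD, n = 3 each). The adhesion molecule NCAM1 (NCAM), at 1.40 and 8.09 FPKM, differed by -1.92, and 2 rows carry that symbol, of which the more abundant was taken.

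Like ALPL and CORIN, 14 matched markers of this list fell under the filter. They were RSPO2, WIF1, SOX18, HHIP, SPON1, APOD, FRZB, IGF1, ITGA9, NRG2, HGF, RUNX3, PAPPA and ADAMTS18. None had a mean above 0.962 FPKM in DPC (APOD) or 0.499 FPKM in HMC (RUNX3). Not all rested on as few reads as ALPL, with ITGA9 at 148 reads in DPC and 9 in HMC and RUNX3 at 35 and 78. SOX18, FRZB and ADAMTS18 had no read in any DPC library. WIF1, a WNT inhibitor, had 2 reads in DPC and 0 in HMC, and the Hedgehog inhibitor HHIP had 6 and 0. IGF1, which was also added to the medium as protein, had 24 reads in DPC and 0 in HMC, at 0.535, 0.274 and 0.116 FPKM in the DPC cultures.

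**Figure D4:**
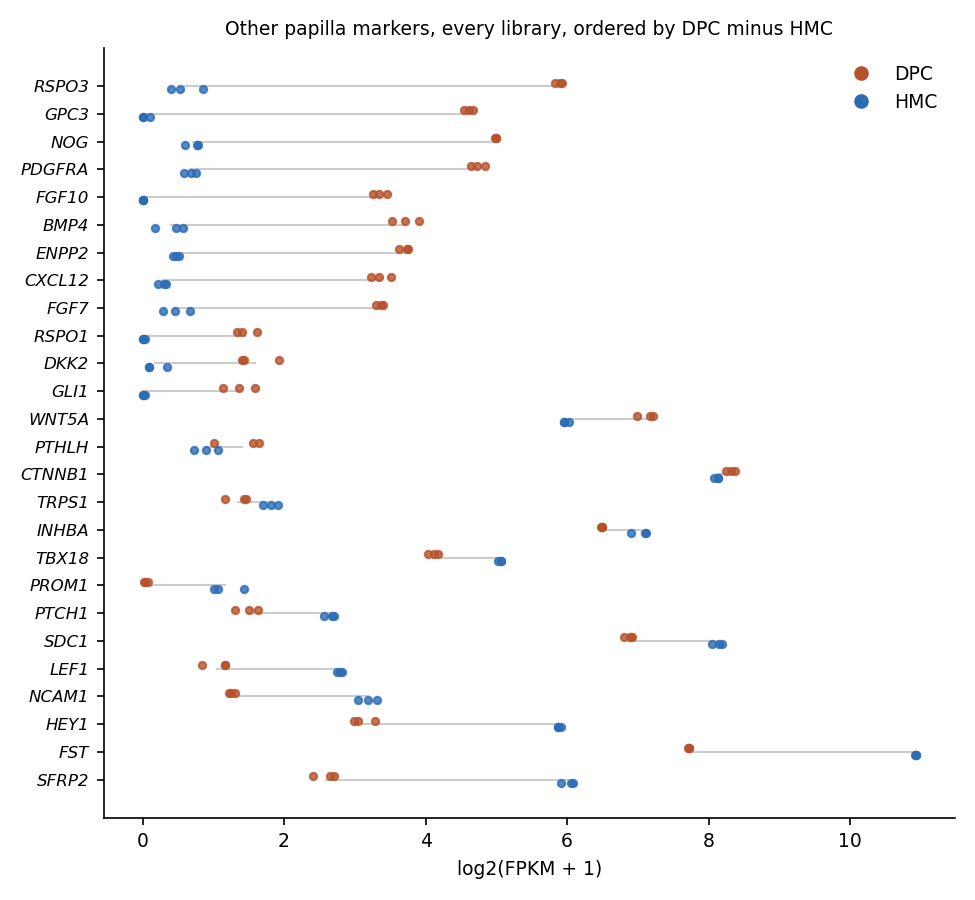
Each of the 26 tested further papilla markers as log2(FPKM + 1) in every DPC and HMC culture, joined at the group means and ordered by the difference DPC minus HMC. RSPO3, GPC3, NOG and PDGFRA lead toward DPC, and SFRP2, FST and HEY1 toward HMC.

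Versican forms aggregates with hyaluronan, fibulins, fibrillin and tenascin, and proteases of the ADAMTS family cut it. Of 7 tested partners, 5 were called higher in DPC and 2 higher in HMC, against 29.7% and 46.2% of all tested genes, with a median log2 difference of 4.02. TNC (HXB), tenascin C, was the most abundant at 2472 ± 29.8 FPKM in DPC against 99.5 ± 9.36 FPKM in HMC (SD, n = 3 each). FBLN1 and FBLN2, fibulins that bind versican, had log2 differences of 5.77 and 5.32. Those higher in HMC, named after their values were seen, were the hyaluronan receptor CD44 (Ly-24; log2 difference -0.72) and the hyaluronan synthase HAS3, at 0.777 FPKM in DPC against 6.70 FPKM in HMC. The other hyalectans were under the filter, with aggrecan (ACAN, in the table AGC1) at 0.173 FPKM in DPC, brevican (BCAN) at 0.0476 FPKM and neurocan (NCAN, in the table CSPG3) at 0, so versican was the 1 member of that family above 0.5 FPKM.

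Of 5 tested proteases known to cut versican, 4 were called higher in DPC and none higher in HMC, against 29.7% and 46.2% of all tested genes. Of the 4, ADAMTS9 and ADAMTS20 reached the filter through DPC alone, so their direction was fixed by the filter. The count therefore describes the list and supports no direction. ADAMTS9 (KIAA1312) stood at 21.7, 22.1 and 21.0 FPKM in DPC and 0.538, 0.290 and 0.562 FPKM in HMC (log2 difference 3.95, SE 0.09, limma adjusted p = 3.20e-09). ADAMTS20 and ADAMTS5 (ADAMTS11) had differences of 2.00 and 1.52. ADAMTS1 (KIAA1346), the most abundant, did not pass at 46.5 ± 0.714 FPKM in DPC against 44.4 ± 2.62 FPKM in HMC (SD, n = 3 each, limma adjusted p = 0.282). It passed toward DPC after median-of-ratios rescaling (limma adjusted p = 0.0067) and quantile normalization (limma adjusted p = 0.000379).

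Of 8 tested genes around ITGA8, 3 were called toward DPC and 5 toward HMC (37.5% and 62.5%), with a median log2 difference of -0.32. As these shares lie near the 29.7% and 46.2% of all tested genes, they are not read as a result about the list. With quantile normalization 3 of these 5 still passed, and with median-of-ratios rescaling 4 did. TNC, also a ligand of this integrin, is described above. NPNT (UNQ295/PRO334), nephronectin, a matrix ligand of this integrin, had no read in DPC and 2 in HMC. Other RGD ligands were abundant. FN1, fibronectin, stood at 1275 FPKM in DPC against 1571 FPKM in HMC (log2 difference -0.30, which did not pass after quantile normalization, limma adjusted p = 0.204). SPP1 (OPN), osteopontin, stood at 7.99 ± 0.206 FPKM in DPC against 1504 ± 80.9 FPKM in HMC (SD, n = 3 each), a log2 difference of -7.39. Among other alpha chains ITGA4 (CD49D) stood at 11.9, 11.9 and 11.1 FPKM in DPC and 0.0550, 0.0217 and 0.0323 FPKM in HMC, a log2 difference of 3.61. ITGA4 reached the filter through DPC alone, so its direction was fixed by the filter. The beta chain ITGB1 was not matched and is not analysed here.

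Of 22 tested relatives, partners and targets of TWIST1, 19 were called higher in DPC and 2 higher in HMC, against 29.7% and 46.2% of all tested genes, with a median log2 difference of 2.01. HAND2 (DHAND) and FGFR3 (JTK4) reached the filter through DPC alone and CDH1 through HMC alone, so the direction of these genes was fixed by the filter. TWIST2, its closest paralogue, stood at 88.8, 81.0 and 85.1 FPKM in DPC and 4.19, 2.66 and 5.13 FPKM in HMC (log2 difference 4.14, SE 0.17, limma adjusted p = 8.32e-08). The paralogues are alike in sequence, and the sources used here do not say how reads matching both were counted, so the split between them is uncertain. ZEB2 (HRIHFB2411), a repressor of epithelial genes, had a difference of 4.42. PRRX2 (PRX2), a homeobox factor of dermis, was the most abundant of the list in DPC, at 660 ± 31.5 FPKM against 45.2 ± 4.13 FPKM in HMC. CDH1, the epithelial cadherin that TWIST1 is known to repress, stood at 0.368 FPKM in DPC against 195 FPKM in HMC (log2 difference -7.16). FGFR2 (BEK), a receptor for FGF7 and FGF10, was the other gene higher in HMC, named after its value was seen, at 11.6 FPKM in DPC against 34.8 FPKM in HMC. TCF3 (BHLHB21), a dimer partner of TWIST1, was not called (16.1 ± 1.34 FPKM in DPC, 18.3 ± 1.21 FPKM in HMC, SD, n = 3 each, limma adjusted p = 0.072), and its log2 difference went from -0.18 to 0.03 after quantile normalization.

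Around ALPL, 11 genes of phosphate and mineral handling were matched and 8 passed the filter. ENPP1, which makes pyrophosphate, was at 0.676 FPKM in DPC against 0.237 FPKM in HMC, while SP7 (OSX), a bone transcription factor, and BGLAP, osteocalcin, were also under it. Of 8 tested, 3 were called higher in DPC and 5 higher in HMC, shares near the 29.7% and 46.2% of all tested genes, with a median log2 difference of -0.87. Of the 5, PHOSPHO1 reached the filter through HMC alone, so its direction was fixed by the filter. NT5E (NT5), an ectoenzyme that frees phosphate and adenosine from AMP, stood at 125, 135 and 122 FPKM in DPC and 2.13, 2.78 and 2.92 FPKM in HMC (log2 difference 5.16, SE 0.09, limma adjusted p = 6.93e-10). SPARC, a collagen-binding matrix protein, was the most abundant, at 2023 FPKM in DPC against 93.5 FPKM in HMC. SPP1 had the largest difference toward HMC, as given above. ALPI, ALPP and ALPG, other alkaline phosphatases, had no matched row, so they are not analysed here.

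Around CORIN, the natriuretic peptide receptors NPR2 and NPR3 passed the filter, while NPR1 (ANPRA), the receptor of atrial natriuretic peptide, stood at 0.167 FPKM in DPC against 0.0161 FPKM in HMC. Of 8 tested, 3 were called higher in DPC and 5 higher in HMC, shares near the 29.7% and 46.2% of all tested genes, with a median log2 difference of -0.83. Of these 8, 5 reached the filter through 1 group alone (NPR3, PCSK6, NPPB, HPN and ST14), so their direction was fixed by the filter. With quantile normalization 4 of the 5 genes called higher in HMC still passed. NPR3 (ANPRC), the clearance receptor for natriuretic peptides, stood at 67.7, 65.2 and 61.1 FPKM in DPC and 0.387, 0.552 and 0.420 FPKM in HMC (log2 difference 5.50, SE 0.07, limma adjusted p = 2.00e-10). ST14 (PRSS14) and HPN (TMPRSS1), membrane serine proteases of the same type as CORIN, had differences of -7.99 and -3.19. ST14 was also the most abundant of the list, at 340 FPKM in HMC against 0.341 FPKM in DPC. ASIP, the pigment signal linked to CORIN in coat colour and mentioned after its reads were seen, had 2 reads in DPC and 3 in HMC. NPPA, the precursor of atrial natriuretic peptide, was not matched and is not analysed here.

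**Figure D5:**
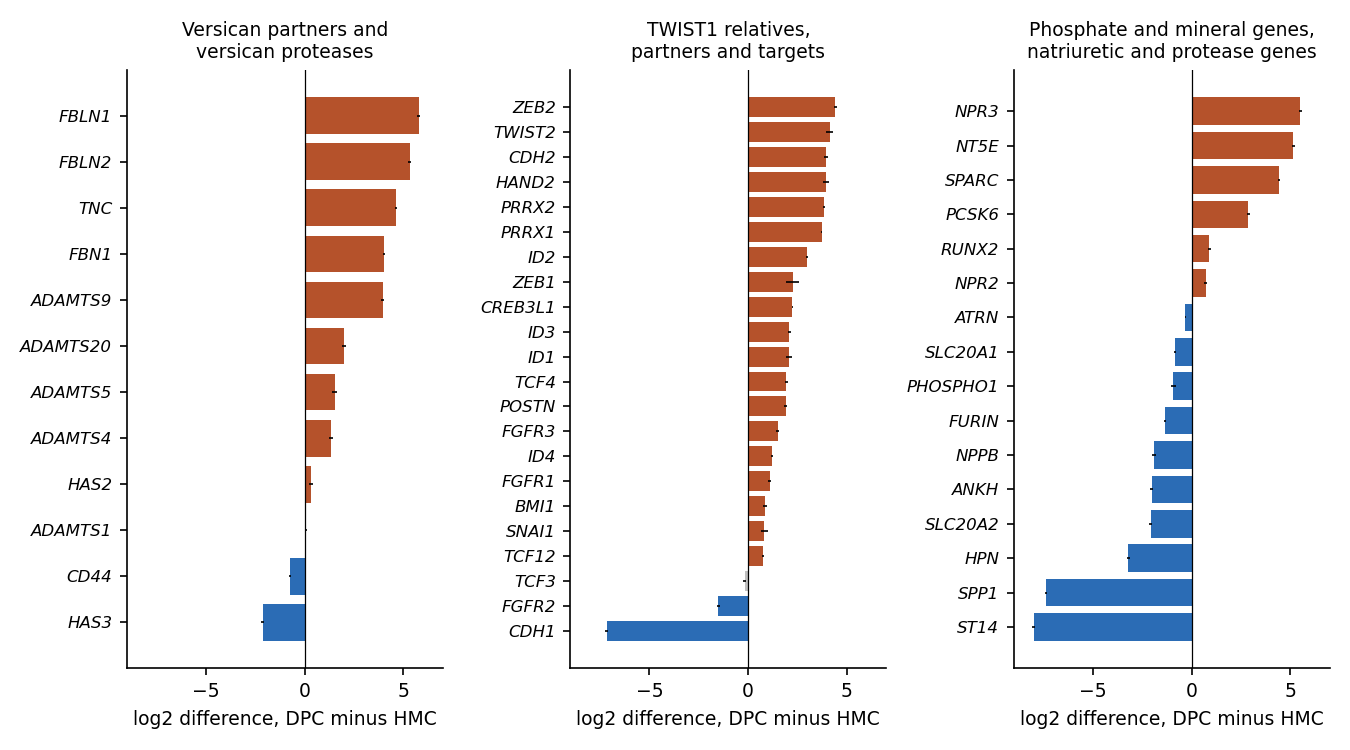
Log2 difference in log2(FPKM + 1), DPC minus HMC, with its SE, for tested genes around VCAN (left), TWIST1 (middle) and ALPL and CORIN (right); red marks calls toward DPC, blue toward HMC and grey no call. Most bars point to DPC in the left and middle panels, with CDH1 the longest toward HMC in the middle.

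Genes with the most similar profile were taken as those at the smallest Euclidean distance in log2(FPKM + 1) over the 6 samples, 3 for each abundant marker. With 2 groups of 3, this likeness is mostly one of the level in each group. For TWIST1 they were PTN (distance 0.69), a heparin-binding growth factor, NID1 (NID; 0.81), a basement membrane protein, and CDH11 (1.54), a cadherin of mesenchyme. For ITGA8 they were CDH13 (0.81), NPR3 (ANPRC; 0.90) and MFAP5 (MAGP2; 1.07), a microfibril protein. CDH13, a cadherin held in the membrane by a lipid anchor, stood at 75.1 ± 1.69 FPKM in DPC against 0.538 ± 0.0687 FPKM in HMC (SD, n = 3 each). For VCAN they were NT5E (NT5; 0.52), the procollagen protease ADAMTS2 (NPI; 0.55) and a row given as UNQ346/PRO545 (0.56). NPR3 and NT5E thus appear both here and in the lists drawn up around CORIN and ALPL.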

How the data were processed

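Total RNA of 3 DPC and 3 HMC cultures was extracted with Trizol and made into stranded mRNA libraries with a TruSeq kit, per the labels' protocols. Tools listed in the submitters' processing notes, with no role, are DESeq 1.20.0, HISAT2 2.2.1.0 and Trimmomatic. The sources used here do not give the read counter, genome build or annotation, and neither coordinates nor sequences are printed. The authors deposited FPKM, 1 column per sample, for 15646 genes, which corrects for length and depth but not for RNA composition.

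Whole reads were recovered from the FPKM steps for 100% of genes (relative tolerance 1e-06), known up to a common factor per gene. For the 11883 genes whose mean reached 0.5 FPKM, log2(FPKM + 1) was compared between groups in R 4.3.3 by limma 3.58.1 (prior variance trended on the mean), two-sided, with Benjamini-Hochberg adjustment over all of them and 0.05 as threshold. ALPL and CORIN, under the filter, were tested by exact permutation. Counting intervals are exact at 95%. Tables used Python 3.11.15, and the fit was tested on simulated data. The members and lists were chosen with earlier results of these data known. Of 187 listed genes, 81 were matched by current symbol and 77 by an older symbol (given in parentheses). This was done by hand after the values could be seen, and 29 were not matched. The rows called TCF3 and TCF4 carry Wnt signalling annotation, taken as that of TCF7L1 and TCF7L2, and were not used under those names. Where several rows shared a symbol, the more abundant was taken. Named are all members, of the further papilla markers the 4 called genes of largest difference in each direction, the most abundant in each group and those under the filter, of each other list of related genes up to 3 called genes of largest absolute difference in either direction, the most abundant and partners not called, and the 3 nearest profiles. Other genes named were chosen after their values were seen. Alternatives were a pseudocount of 0.1, no filter, a filter at 5 FPKM, 2 rescalings, no trend, a replicate block, each replicate left out and, chosen after seeing the data, voom on recovered reads.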

Additional observations from a re-analysis of the deposited data

How the results depend on the processing

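TWIST1, ITGA8 and VCAN stayed higher in DPC and past the threshold under all 14 alternatives, with log2 differences of 6.36 to 7.11, 6.02 to 8.64 and 4.82 to 5.36 and limma adjusted p of at most 8.88e-07, 2.45e-06 and 2.95e-07. For ITGA8 the direction was fixed wherever a filter was used, so those alternatives do not bear on it. Without a filter its log2 difference was 6.16 (limma adjusted p = 3.37e-08). The upper values of ITGA8 came with a pseudocount of 0.1 (8.35) and voom (8.64). For CORIN and ALPL the permutation tests cannot go below 0.1 and say nothing of stability; without a filter the limma adjusted p was 0.0747 for CORIN and 0.898 for ALPL. The log2 difference of ALPL, -0.0054, changed sign to 0.0196 after quantile normalization and ranged from -0.0185 to 0.0208 with a replicate left out, turning positive without HMC replicate 1, which holds all its HMC reads. For CORIN and ALPL the 5 FPKM filter, the untrended fit, the block and voom gave no value, as both lie under the filter. The further papilla markers called fell to 8 toward DPC and 6 toward HMC at 5 FPKM, where fewer genes are tested. Without a filter 20 were called toward DPC and 13 toward HMC. Genes called ranged from 6808 to 9851, with 9051 by voom on the recovered reads. Of calls over all genes, 39.1% were toward DPC as deposited, 53.6% with quantile normalization and 48.8% with median-of-ratios rescaling. Correlations of deviations were 0.0230, 0.0337 and 0.00635 for same-numbered cultures, and ran from -0.0413 to 0.0144 for different-numbered ones. With 3 cultures per group these values cannot decide whether replicate numbers pair the samples. With the replicate block 8924 genes were called against 9020. The log2 differences of TWIST1, ITGA8 and VCAN were then 6.67, 6.16 and 4.90, and 15 and 11 further papilla markers were called.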
